A study of Homo sapiens with 8 samples.

Results

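The 9 genes described here control the G1 phase of the cell cycle: the kinases CDK4 and CDK6, the D-type cyclins CCND1, CCND2 and CCND3, the kinase inhibitors CDKN1B, CDKN2C and CDKN2D, and the retinoblastoma gene RB1. They are a list of gene names, with no threshold on a measured value, and were chosen with earlier results of these data known. Counts of called members are therefore a description. All 9 were matched by Ensembl identifier to gene symbol and found among the 63140 genes of the count table. The counts come from chromatin isolation by RNA purification (ChIRP), in which fixed and sonicated lysate is hybridised with biotinylated probes and the RNA captured with them is sequenced. Which RNA the probes bind is not stated in the sources used here, so a value is an amount of RNA in a pull-down and not a cellular level.

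The 4 groups, of 2 libraries each, were collected on day 3 after nucleofection of acute myeloid leukaemia cells. HOTSCRAMBL KO cells received Cas9 ribonucleoprotein, which cuts DNA, with guides to the long non-coding RNA HOTSCRAMBL. HOTSCRAMBL CBE cells were given guides to the same RNA with a cytosine base editor, an enzyme that changes C into T and leaves the double strand uncut. AAVS1 KO and AAVS1 CBE cells, whose genotype is labelled WT, received the same editors with guides to AAVS1, the series' control site, so every group underwent nucleofection and editing. In each group replicate 1 is labelled MOLM13 and replicate 2 OCI-AML4, both established human leukaemia lines. Whether the cells were clones or pools, and how many alleles were edited, is not stated in the sources used here. No row was matched to HOTSCRAMBL by symbol, so the targeted RNA itself was not analysed here.

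D-type cyclins bind CDK4 or CDK6, and the active kinases phosphorylate the RB1 protein, which releases E2F transcription factors and lets the cell enter S phase. The INK4 proteins, CDKN2C and CDKN2D among them, bind CDK4 and CDK6 directly and keep cyclins away. CDKN1B, a KIP family protein, inhibits cyclin E complexes with CDK2 and is sequestered by cyclin D complexes. CDK6 is the more prominent of the pair of kinases in many blood cells and is a known dependency of leukaemias with KMT2A fusions.

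Total counts per library ran from 20548300 to 37970163. The median Pearson correlation of log2 CPM (counts scaled to library size) across genes was 0.901 within groups, 0.878 between groups under the same line label and 0.875 under different labels. Libraries of the same label were thus hardly more alike than those of different labels, which leaves the line labels in doubt, and every ratio given below per label is a ratio of 2 single libraries. Ribosomal protein genes took 1.32% to 1.59% of counts in the 4 AAVS1 libraries and 3.20% to 4.46% in the 4 HOTSCRAMBL libraries, and mitochondrial genes took 6.77% to 7.23% and 10.2% to 11.9%. These shares move with every HOTSCRAMBL comparison below, and their part in the results was not tested. The 10 myeloid markers summed to between 1732.7 and 2342.7 CPM per library, with KIT at 0 in 6 libraries, and 10 markers of T, B, red blood, epithelial and fibroblast cells to between 6.40 and 13.6 CPM, with CD3E, HBB and KRT19 at 0 throughout. Of the myeloid markers 9 were tested, of which 2 were called higher with KO, and 2 higher and 1 lower with CBE, where 8.76% and 8.83% of all tested genes were called; of the others 2 were tested and 0 called. LYZ, the lysozyme gene, had the largest of these changes with KO, from a mean of 130.5 to 604.0 CPM (2.20 on the log2 scale, adjusted p 9.41e-13 in edgeR). CEBPA was the other marker called higher with KO, at 1.0 (adjusted p 4.62e-06 in edgeR). It was also called higher with CBE, at 0.61 (adjusted p 0.00212 in edgeR), as was PTPRC, at 0.67 (adjusted p 0.00647 in edgeR). CSF3R was the marker called lower with CBE, at −0.38 (adjusted p 0.00658 in edgeR). The 7 tested markers not called with KO all had negative values, from −0.02 for PTPRC to −0.84 for ITGAM. The part of these markers in the results was not tested. In such bulk data changes in the share of cycling cells, in RNA per cell and in pull-down recovery cannot be told apart.

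Levels are given as CPM scaled by TMM (trimmed mean of M-values), and, where genes are compared with each other, divided by exon length in kilobases (CPM per kb). By the mean of the 8 libraries in CPM per kb, CDK6 came first at 24.1 ± 3.58 (SD, n = 8), followed by CCND2 at 22.1 ± 6.22, CDKN2C at 21.9 ± 5.54 and CCND3 at 21.7 ± 5.09. This order did not hold within groups: by group mean CDK6 was first in AAVS1 CBE (22.5), CDKN2C in AAVS1 KO (26.4, against 23.0 for CDK6), and CCND2 in HOTSCRAMBL KO (22.7 against 21.5) and HOTSCRAMBL CBE (31.2 against 29.6). The ranges of these 4 genes over the libraries overlapped. RB1 stood at 10.7 ± 2.45 CPM per kb, CDKN1B at 7.86 ± 1.47, CDKN2D at 7.70 ± 3.82 and CDK4 at 6.65 ± 2.73. The ranges of those next 4 genes overlapped as well, and RB1, at up to 15.4 in HOTSCRAMBL CBE, reached the lowest library of CDKN2C, at 14.1. CCND1 was lowest at 2.34 ± 1.01 CPM per kb, and its highest library, at 4.5, overlapped the lowest of CDK4 and CDKN2D.

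**Figure D1:**
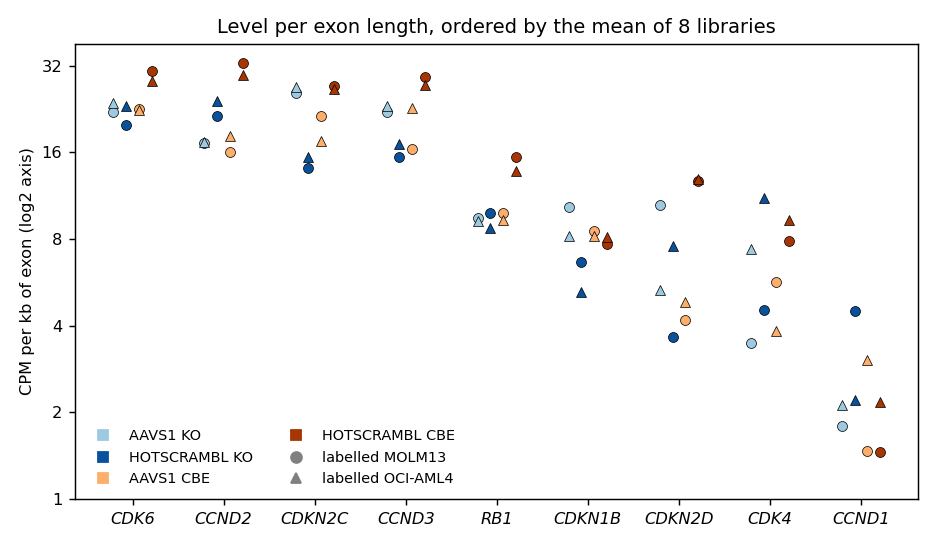
Level of each of the 9 genes in CPM per kb of exon (vertical axis, log2 scale) in the 8 libraries, coloured by group and shaped by labelled line; genes are ordered by their mean. CDK6, CCND2, CDKN2C and CCND3 form the upper set with means between 21.7 and 24.1, and CCND1 is lowest at 2.34.

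The level of CDK4 is a low estimate. Of its 3094 exonic bases, 1369 (44.2%) are shared with TSPAN31 on the other strand, and reads that overlap both genes were not counted. For the other members the shared part was 20.4% for CDKN2C, 13.8% for CCND2, 10.4% for CCND1 (with LTO1) and at most 0.7% elsewhere. Strand was not used in the counting, so reads of antisense neighbours cannot be separated where only 1 gene is annotated.

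Of the 9 members, 7 had a RefSeq promoter entry, and 4 promoters are printed, those of inhibitors and a kinase that were called in a comparison below. Each is the 250 bases before the start (RefSeq, GRCh38.p14), read 5′ to 3′ on the gene's strand. Capitals mark 4 motifs searched on both strands: TTTNNCGC (E2F), GGGCGG (GC box of SP1 and KLF factors), CCAAT (NF-Y) and CACGTG (E-box of MYC and related factors).
CDKN1B, chr12:12717118-12717367, plus strand: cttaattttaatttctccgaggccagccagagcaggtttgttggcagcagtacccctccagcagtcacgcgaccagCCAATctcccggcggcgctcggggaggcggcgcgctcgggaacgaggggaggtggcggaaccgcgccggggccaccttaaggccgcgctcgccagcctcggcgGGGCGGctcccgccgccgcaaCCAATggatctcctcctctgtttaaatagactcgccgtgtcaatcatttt
CDKN2C, chr1:50960495-50960744, plus strand: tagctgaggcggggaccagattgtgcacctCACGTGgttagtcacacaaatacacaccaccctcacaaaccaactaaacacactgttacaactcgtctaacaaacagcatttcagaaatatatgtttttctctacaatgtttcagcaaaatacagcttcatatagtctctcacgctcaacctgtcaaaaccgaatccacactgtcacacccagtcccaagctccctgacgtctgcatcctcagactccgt
CDK6, chr7:92836574-92836823, minus strand: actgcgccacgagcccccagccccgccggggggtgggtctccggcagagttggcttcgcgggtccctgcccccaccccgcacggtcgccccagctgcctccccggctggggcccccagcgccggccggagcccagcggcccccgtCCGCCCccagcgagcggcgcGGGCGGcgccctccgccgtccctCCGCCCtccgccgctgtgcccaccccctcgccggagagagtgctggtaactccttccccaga
CDKN2D, chr19:10568980-10569229, minus strand: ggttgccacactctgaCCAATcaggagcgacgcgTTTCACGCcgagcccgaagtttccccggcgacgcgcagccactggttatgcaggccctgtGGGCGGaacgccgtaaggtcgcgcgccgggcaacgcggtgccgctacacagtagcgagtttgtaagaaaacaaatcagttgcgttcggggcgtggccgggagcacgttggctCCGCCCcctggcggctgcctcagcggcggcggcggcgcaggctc
The E2F letters occur in 5.9% of the 35116 RefSeq windows of this length, the GC box in 42.6%, CCAAT in 32% and the E-box in 6.3%. Among the 4 windows shown, CDKN2D holds 1 E2F match, 2 GC boxes and 1 CCAAT, CDKN1B 2 CCAAT and 1 GC box, CDK6 3 GC boxes and CDKN2C 1 E-box, with 0 overlaps between matches of different motifs. CDKN2C has 2 further RefSeq starts downstream, and the 5′-most is shown. The window of the nearer one holds 5 GC boxes, and that of the farther one 1 GC box, 1 CCAAT and 1 E-box. CDK6 also has a further start downstream, whose window holds 0 matches. The CDKN1B start lies 31870 bases inside the gene span of the count table. A match describes letters and not a bound site.

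The first comparison asked how the recovered RNA of these genes differed between Cas9 targeting of HOTSCRAMBL and of AAVS1. A gene was called at a Benjamini-Hochberg adjusted p under 0.05 over all 24057 tested genes in edgeR's quasi-likelihood test, which included the labelled line. All 9 members passed the filter on low counts. Of the 9, 2 inhibitors fell, CDKN2C and CDKN1B, and 0 members rose. Over all tested genes 8.76% were called, 4.51% higher and 4.25% lower. Among the 8783 genes whose mean level lay within the members' range, from 11.1 to 295.4 CPM, 16.9% were called. The members' median log2 fold change was −0.09, against −0.01 for all genes. The edited and control libraries did not overlap for 5 members, 2 above and 3 below, where 44.8% of all tested genes did not overlap, 21.0% above and 23.8% below.

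CDKN2C (ENSG00000123080, chromosome 1, 50960745 to 50974634, GRCh38) encodes an INK4 inhibitor of CDK4 and CDK6. It was recovered at 78.0 and 81.6 CPM in the AAVS1 KO libraries labelled MOLM13 and OCI-AML4, and at 42.7 and 46.4 CPM in the HOTSCRAMBL KO libraries. Both edited libraries lay well below both controls, and the log2 fold change was −0.84 (adjusted p 0.00705 in edgeR, SE 0.205). The ratio within each label was similar, at −0.87 and −0.82 on the log2 scale. With a single library of the contrast left out the call was lost, at adjusted p of 0.0846 and 0.162 without AAVS1 KO replicates 1 and 2 and 0.133 and 0.0552 without HOTSCRAMBL KO replicates 1 and 2, and in a fit of only these 4 libraries the adjusted p was 0.0746.

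CDKN1B (ENSG00000111276, chromosome 12, 12685498 to 12722369) encodes the KIP inhibitor. Its values were 95.1 and 76.0 CPM in AAVS1 KO and 61.4 and 48.5 CPM in HOTSCRAMBL KO. The groups did not overlap, with a log2 fold change of −0.64 (adjusted p 0.035 in edgeR, SE 0.195) and single-label ratios of −0.63 and −0.65. This call was the less stable one. It was lost without the line term in the model (adjusted p 0.0577), in the fit of 4 libraries (0.128), and when any 1 of the 8 libraries was left out. Those adjusted p were 0.468 and 0.121 without AAVS1 KO replicates 1 and 2, 0.114 and 0.272 without HOTSCRAMBL KO replicates 1 and 2, 0.0717 and 0.0713 without the AAVS1 CBE replicates, and 0.0537 and 0.0545 without the HOTSCRAMBL CBE replicates.

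The third inhibitor, CDKN2D (ENSG00000129355, chromosome 19, 10566460 to 10569059), also of the INK4 family, was not called. It stood at 15.8 and 8.04 CPM in AAVS1 KO and 5.51 and 11.4 CPM in HOTSCRAMBL KO. The 2 labels went opposite ways, with log2 ratios of −1.52 and 0.50, and the 95% interval of the log2 fold change ran from −1.49 to 0.56. The sign of −0.47 turned to 0.223 without AAVS1 KO replicate 1 and to 0.036 without HOTSCRAMBL KO replicate 1.

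Among the D-type cyclins, which activate CDK4 and CDK6, CCND2 and CCND3 had opposite signs with KO and neither was called. CCND2 (ENSG00000118971, chromosome 12, 4269771 to 4305353) went from 138.4 and 138.9 CPM to 170.7 and 192.7 CPM, a log2 fold change of 0.39 (adjusted p 0.0781 in edgeR, SE 0.136). CCND3 (ENSG00000112576, chromosome 6, 41934934 to 42050357) went from 127.4 and 132.9 CPM to 88.7 and 98.5 CPM, a log2 fold change of −0.48 (adjusted p 0.0719 in edgeR, SE 0.164). In both cases the groups did not overlap. Without TMM scaling CCND3 passed, at −0.64 (edgeR adjusted p 0.00993), and DESeq2 called both, at adjusted p of 0.00256 for CCND2 and 0.0159 for CCND3. The older quasi-likelihood method of edgeR also called CCND3, at 0.0273.

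Because a ratio of 2 genes within a library does not depend on scaling, CCND2 was also set against CCND3 per kb; this pair was chosen after its values were seen. The ratio was 0.784 and 0.754 in AAVS1 KO and 1.39 and 1.41 in HOTSCRAMBL KO. Under base editing the control libraries had 0.981 and 0.798, and the HOTSCRAMBL libraries 1.11 and 1.09. The HOTSCRAMBL libraries of both editors were therefore above 1 and the AAVS1 libraries below 1, with the wider separation under KO. How many other pairs of genes separate the libraries in this way was not computed. CCND2 made up 40.8% to 47.4% of the summed D-type cyclin level per kb in the AAVS1 libraries and 50.2% to 55.6% in the HOTSCRAMBL libraries.

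CCND1 (ENSG00000110092, chromosome 11, 69641156 to 69654474), the D-type cyclin of many solid tissues, was rare, with 218 to 420 counts per library. With KO it stood at 8.55 and 10.1 CPM in the control and 21.4 and 10.5 CPM in the edited libraries, which did not overlap by a narrow margin. A single library, HOTSCRAMBL KO replicate 1, set the log2 fold change of 0.74 (interval −0.24 to 1.73). Without it the value was −0.138.

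The kinases and RB1 were not called with KO. CDK6 (ENSG00000105810, chromosome 7, 92604921 to 92836573) had 270.8 and 291.3 CPM in the control and 244.0 and 282.2 CPM in the edited libraries, which overlap, and its interval of −0.33 to 0.14 bounds the log2 fold change closely. CDK4 (ENSG00000135446, chromosome 12, 57747727 to 57756013) had 10.7 and 22.9 CPM against 14 and 34.2 CPM. The OCI-AML4 label was the higher one in both groups, and the interval of −0.25 to 1.34 is wide. RB1 (ENSG00000139687, chromosome 13, 48303744 to 48599436), the substrate of these kinases, had 60.9 and 59.7 CPM against 63.4 and 56.3 CPM, with overlapping groups and a log2 fold change of −0.01 (interval −0.41 to 0.39).

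**Figure D2:**
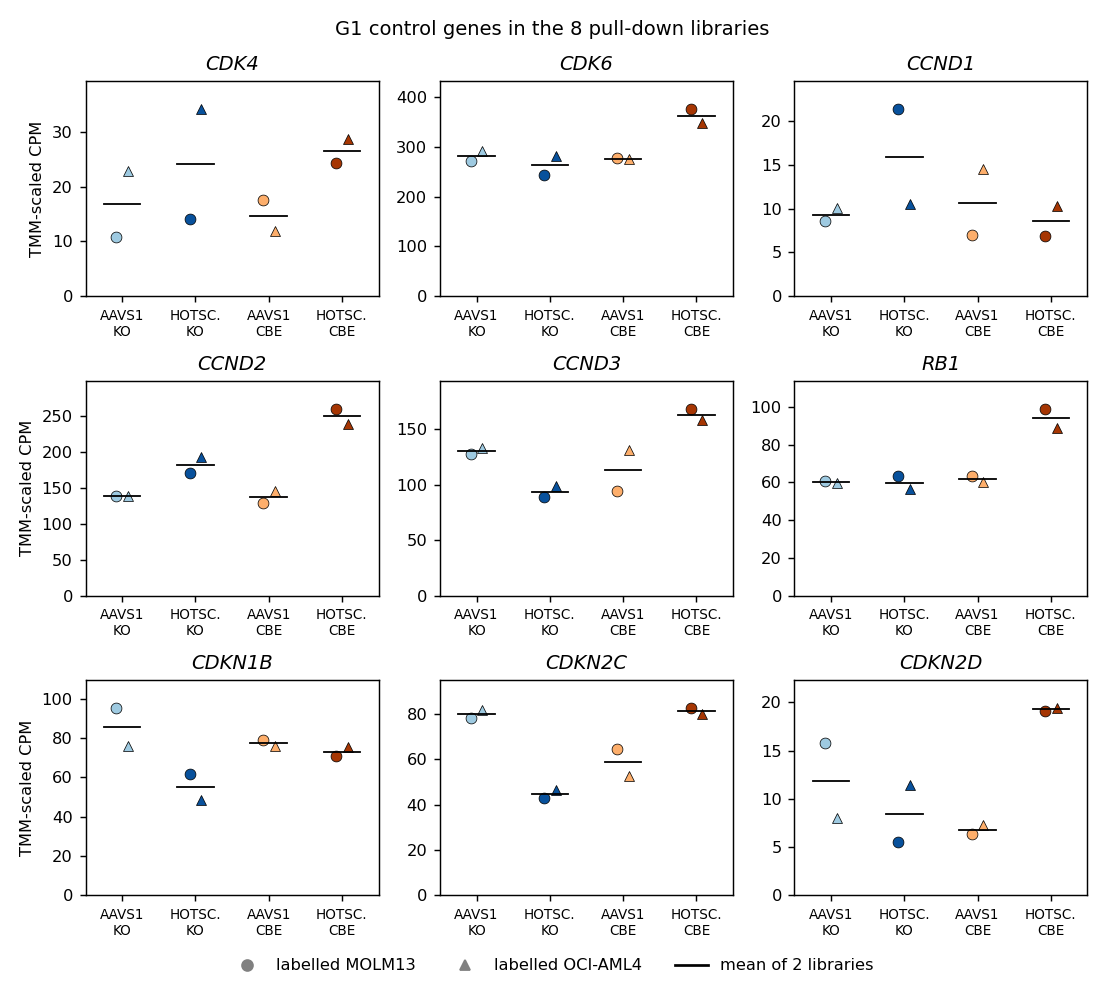
TMM-scaled CPM (vertical axes, from 0) of the 9 genes in each library by group (horizontal axis); circles are labelled MOLM13, triangles OCI-AML4, and bars are means of 2 libraries. CDKN2C is lowest in HOTSCRAMBL KO at 42.7 and 46.4 CPM, and CCND2, CCND3, RB1, CDK6 and CDKN2D are highest in both HOTSCRAMBL CBE libraries.

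The second comparison asked the same of base editing. Here 5 of the 9 members rose and 0 fell: the kinase CDK6, the cyclins CCND2 and CCND3, the inhibitor CDKN2D and RB1. Over all tested genes 8.83% were called, 4.56% higher and 4.27% lower. Within the members' range of levels 18.4% were called. The median log2 fold change of the members was 0.55, against −0.02 for all genes. Both edited libraries were above both controls for 7 members and below for 1, where 22.7% of all tested genes lay above, 23.7% below and 46.4% either way.

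CCND2 changed with the smallest p of the members. It stood at 128.6 and 145.2 CPM in the AAVS1 CBE libraries and at 260.2 and 238.3 CPM in the HOTSCRAMBL CBE libraries, without overlap. Its log2 fold change was 0.87 (adjusted p 2.31e-05 in edgeR, SE 0.126), that is 1.83-fold, and it stayed past the threshold in all 16 alternatives, with values from 0.733 to 0.989. CCND3 had 94.6 and 131.3 CPM in the control and 168.3 and 157.8 CPM in the edited libraries, a log2 fold change of 0.55 (adjusted p 0.0147 in edgeR, SE 0.146). The label MOLM13 gave 0.83 and OCI-AML4 0.27, and the AAVS1 CBE libraries were further apart than the HOTSCRAMBL CBE libraries. The CCND3 call was lost without AAVS1 CBE replicate 1 (0.328, adjusted p 0.504), without HOTSCRAMBL CBE replicate 1 (0.378, adjusted p 0.467), without AAVS1 KO replicate 1 or 2 (adjusted p 0.0528 and 0.0534), without the line term (0.0527), without TMM (0.079) and in the fit of 4 libraries (0.155).

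Of the 3 inhibitors, CDKN2D was called with CBE and CDKN2C and CDKN1B were not. CDKN2D was recovered at 6.3 and 7.28 CPM in the control and 19.1 and 19.4 CPM in the edited libraries, which had 688 and 494 counts. The groups were far apart, with a log2 fold change of 1.51 (adjusted p 0.018 in edgeR, SE 0.433), that is 2.84-fold. Leaving out a library of the contrast removed the call, at adjusted p of 0.327 and 0.148 without AAVS1 CBE replicates 1 and 2 and 0.252 and 0.167 without HOTSCRAMBL CBE replicates 1 and 2, as did the fit of 4 libraries (0.0755), while the log2 fold change stayed between 1.354 and 1.641. CDKN2C had 64.4 and 52.7 CPM against 82.5 and 79.8 CPM and was not called (0.47 on the log2 scale with SE 0.176, adjusted p 0.109 in edgeR), though DESeq2 called it at 0.0199. CDKN1B was at 79.1 and 75.8 CPM against 70.9 and 75.2 CPM, with an interval of −0.45 to 0.26 around −0.09.

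CDK6 rose from 276.9 and 274.6 CPM to 375.9 and 348.0 CPM, without overlap. The change was 1.32-fold, a log2 fold change of 0.40 (adjusted p 0.0207 in edgeR, SE 0.109). It was not called without TMM (0.256, adjusted p 0.164), without the line term (adjusted p 0.0838), in the fit of 4 libraries (0.104), or without AAVS1 KO replicate 1 or 2 (0.0641 and 0.0653), AAVS1 CBE replicate 1 or 2 (0.187 and 0.27) or HOTSCRAMBL CBE replicate 1 (0.439). CDK4 had 17.6 and 11.9 CPM in the control and 24.4 and 28.8 CPM in the edited libraries. Its groups did not overlap, but it was not called (0.83 on the log2 scale with SE 0.349, adjusted p 0.16 in edgeR).

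RB1 rose from 63.6 and 60.2 CPM to 99.1 and 88.6 CPM, a log2 fold change of 0.60 (adjusted p 0.0198 in edgeR, SE 0.167) with 0.64 and 0.56 under the 2 labels. The 6 libraries of the other groups all lay between 56.3 and 63.6 CPM, well below both HOTSCRAMBL CBE libraries. Its call was lost without TMM (adjusted p 0.0858), in the fit of 4 libraries (0.0929), without AAVS1 KO replicate 2 (0.0501), without AAVS1 CBE replicate 1 or 2 (0.262 and 0.165) and without HOTSCRAMBL CBE replicate 1 or 2 (0.311 and 0.119). CCND1 had 6.99 and 14.5 CPM against 6.9 and 10.3 CPM, with overlapping groups and an interval of −1.28 to 0.65; its sign turned to 0.313 without AAVS1 CBE replicate 2.

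**Figure D3:**
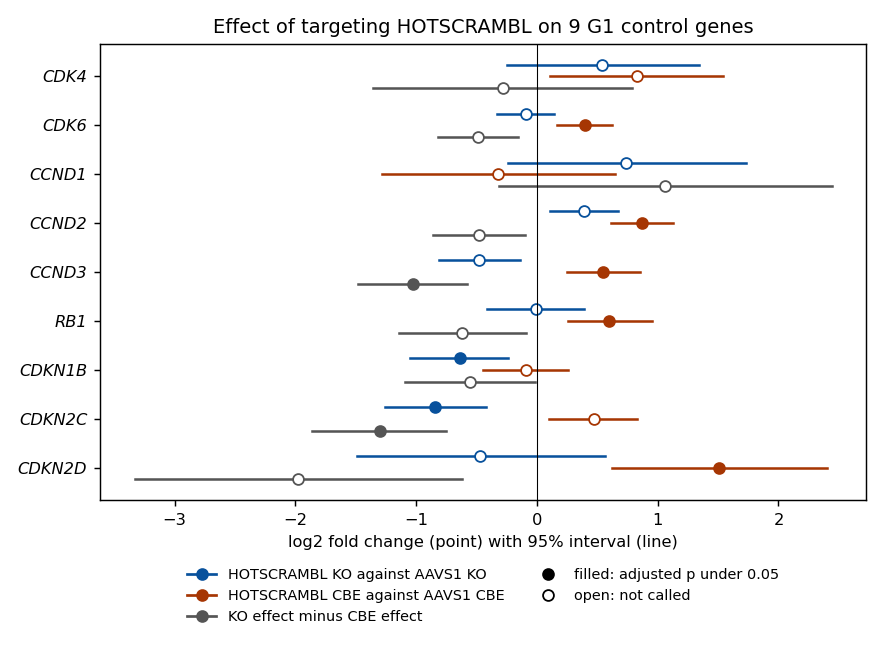
Log2 fold change (horizontal axis, points) with its 95% interval (lines) for each of the 9 genes (vertical axis) with KO, with CBE and for the difference of both effects; filled points passed the threshold. CDKN2C and CDKN1B are filled on the lower side with KO, and CCND2, CDKN2D, RB1, CCND3 and CDK6 on the higher side with CBE.

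The split of all calls into higher and lower depended on the scaling of libraries. Without TMM the median of all genes moved by −0.156 with KO and −0.134 with CBE on the log2 scale, and the share of all calls that were higher went from 51.5% to 33.1% with KO and from 51.6% to 32.6% with CBE. No member changed sign without TMM in either comparison, and CCND2 and CDKN2D kept their calls with CBE.

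The difference between the editors' effects was tested directly, as the KO effect minus the CBE effect; it uses the same libraries as the comparisons above. It called CDKN2C, at −1.30 (adjusted p 0.00445 in edgeR, SE 0.27), and CCND3, at −1.03 (adjusted p 0.00605 in edgeR, SE 0.219), or 2 of 9 members, both lower, where 3.19% of all genes were called, 1.74% higher and 1.45% lower. Among genes within the members' range of levels 6.03% were called. CDKN2C had −0.84 with KO, which was called, and 0.47 with CBE, which was not. CCND3 had −0.48 with KO, which was not called, and 0.55 with CBE, which was. CDKN2D had the difference of largest size, −1.98 with an interval of −3.33 to −0.62, and was not called (edgeR adjusted p 0.107). For CDK6, CCND2, RB1 and CDKN1B the differences were −0.49, −0.48, −0.62 and −0.55, none of them called in edgeR. DESeq2 called 6 members, adding CDK6 (adjusted p 0.0145), CCND2 (0.0499), RB1 (0.0229) and CDKN2D (0.0323), and limma-voom called 3, adding CDK6 (0.0267). The CDKN2C call was lost without AAVS1 KO replicate 1 or 2 (adjusted p 0.0577 and 0.104), HOTSCRAMBL KO replicate 1 (0.0738), AAVS1 CBE replicate 2 (0.0827) or HOTSCRAMBL CBE replicate 1 or 2 (0.0668 and 0.0509). That of CCND3 was lost without AAVS1 KO replicate 1 or 2 (0.133 and 0.091), HOTSCRAMBL KO replicate 1 or 2 (0.0893 and 0.0733), AAVS1 CBE replicate 1 (0.173) or HOTSCRAMBL CBE replicate 1 (0.131).

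To see how far the control cells of both editors differed, AAVS1 KO was set against AAVS1 CBE. This comparison called 0 of 9 members with edgeR, as with DESeq2 and limma-voom, and 0 of all tested genes (0%) with edgeR. An unadjusted p under 0.05 in edgeR was found for 918 genes, fewer than the 1203 expected by chance. The control groups did not overlap for 29.8% of all genes. Of the members 1, CDKN2C, had an unadjusted p under 0.05: it was higher in AAVS1 KO, by 0.44 on the log2 scale (interval 0.07 to 0.81, edgeR adjusted p 0.991). The higher control value of CDKN2C under KO enters its difference between editors. CDKN2D also had unequal controls, by 0.82 (interval −0.16 to 1.81).

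Between the libraries labelled MOLM13 and OCI-AML4, edgeR, DESeq2 and limma-voom each called 0 of 9 members, and 0 had an unadjusted p under 0.05, where 0.495% of all genes were called by edgeR. The widest gap was that of CDK4, lower under the MOLM13 label by 0.46 on the log2 scale (interval −0.99 to 0.07). CDK6 and CCND2 differed by −0.04 (interval −0.20 to 0.12) and −0.05 (interval −0.24 to 0.14).

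The rest of the G1/S pathway was read from 27 further genes, of which 25 were tested. With KO 3 were called higher and 1 lower, and with CBE 1 higher and 1 lower. Their medians were −0.24 and 0.02 on the log2 scale. Of all tested genes 8.76% were called with KO and 8.83% with CBE, and 16.9% and 18.4% of those within the members' range of levels, so these counts do not set the list apart. CCNE2, a cyclin that activates CDK2 at the entry to S phase, stood at 138.2 and 131.4 CPM in AAVS1 KO and 255.5 and 313.3 CPM in HOTSCRAMBL KO (1.08 on the log2 scale with SE 0.137, adjusted p 2.72e-06 in edgeR). Its relative CCNE1 fell with CBE, from 16.7 and 16.3 CPM to 6.71 and 6.61 CPM (−1.31 on the log2 scale with SE 0.411, adjusted p 0.0346 in edgeR). Each of these pairs of edited libraries lay clear of its controls. CCNE1 was not called with KO (adjusted p 0.81 in edgeR), nor CCNE2 with CBE (0.103). Whether calls of single genes on this list, or on the S, G2 and M phase list below, hold under the alternative fits was not computed.

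Of 4 other CDK inhibitors, 2 were tested and both were called higher with KO, the opposite direction to CDKN2C and CDKN1B. CDKN1A, the KIP inhibitor induced by p53, rose from 120.0 and 156.7 CPM to 243.0 and 247.7 CPM (0.83 on the log2 scale with SE 0.135, adjusted p 9.44e-05 in edgeR). CDKN1C, a KIP family relative, was at 2.74 and 0.16 CPM in AAVS1 KO and at 14.8 and 16.4 CPM in HOTSCRAMBL KO (3.42 on the log2 scale with SE 0.847, adjusted p 6.42e-04 in edgeR). Its AAVS1 KO libraries lay far apart, and replicate 2 was near the floor of 3 counts, which is 0.1275 CPM there. The size of the CDKN1C change is therefore uncertain. The INK4 genes CDKN2A and CDKN2B were at or under the floor of 3 counts in every library and were not tested.

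Among 10 E2F and DP factors, only some of which are held by RB1 family proteins, 1 was called, TFDP2. It had 23.5 and 21.8 CPM in AAVS1 KO and 7.5 and 8.27 CPM in HOTSCRAMBL KO (−1.51 on the log2 scale with SE 0.433, adjusted p 0.0159 in edgeR). The pocket proteins RBL1 and RBL2 were not called in either comparison. Among 4 genes for turnover of cyclins and inhibitors, CKS1B, a cofactor of the ligase that degrades CDKN1B, was called higher with CBE, from 3.66 and 2.68 CPM to 10.6 and 10.3 CPM (1.71 on the log2 scale with SE 0.56, adjusted p 0.0371 in edgeR).

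Genes of S, G2 and M phase were read from a further list. Of its 14 members, all tested, 6 rose and 0 fell with CBE, and 3 fell and 0 rose with KO, with medians of 0.24 and −0.34 on the log2 scale. Over all tested genes 4.56% were called higher with CBE and 4.25% lower with KO, and among genes within the members' range of levels 9.75% and 8.86%. PCNA, the sliding clamp of DNA polymerase, rose with CBE from 62.2 and 81.9 CPM to 175.0 and 187.8 CPM (1.34 on the log2 scale with SE 0.149, adjusted p 3.15e-07 in edgeR). TOP2A, a topoisomerase of dividing cells, rose with CBE by 1.04 (adjusted p 1.20e-05 in edgeR, SE 0.144), and was lower with KO, at −0.61 (adjusted p 0.0248 in edgeR, SE 0.175). The mitotic regulators CCNB1 and CDK1 rose with CBE by 0.97 and 1.17, the proliferation marker MKI67 by 0.44 and the helicase subunit MCM6 by 0.64. With KO the helicase subunits MCM3 and MCM7 were lower, at −0.71 and −0.75 on the log2 scale. The part of these genes, and of the share of cycling cells, in the members' changes was not tested.

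**Figure D4:**
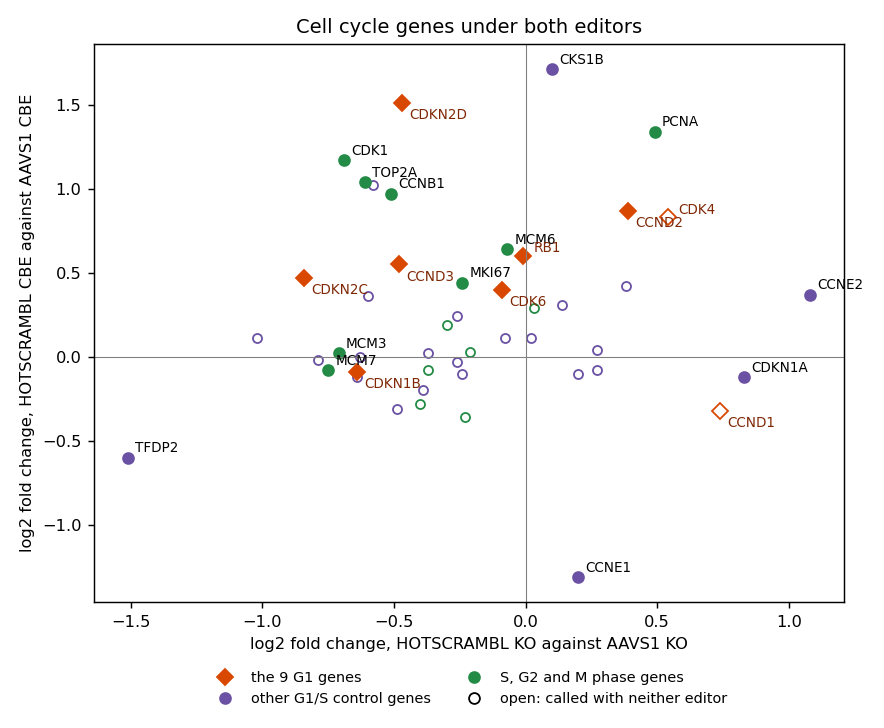
Log2 fold change with KO (horizontal axis) and with CBE (vertical axis) for the 9 G1 genes (diamonds), the other G1/S control genes and the S, G2 and M phase genes (circles); filled symbols were called with at least 1 editor, and CDKN1C, CDKN2A and CDKN2B, at or under the floor of 3 counts in a group, are left out. Among the genes in the upper left, with negative values for KO and positive values for CBE, are CDKN2C, CDKN2D, CCND3, TOP2A, CCNB1 and CDK1.

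Genes with the most similar pattern were sought for the kinase, the cyclin and the inhibitor with the highest level per kb, by Pearson correlation of log2 CPM over the 8 libraries among 12027 genes above the median level. For CDK6 they were SLC7A1, YWHAZ and TYW3 (r of 0.992, 0.982 and 0.979). CCND2 was most like SLC2A3, TMBIM6 and MTHFD2 (0.994, 0.993 and 0.992), and CDKN2C most like TMEM50B, SMARCE1 and RANBP9 (0.983, 0.971 and 0.968). These are the highest of many values over libraries that share 4 groups, and are given as a description.

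**Figure D5:**
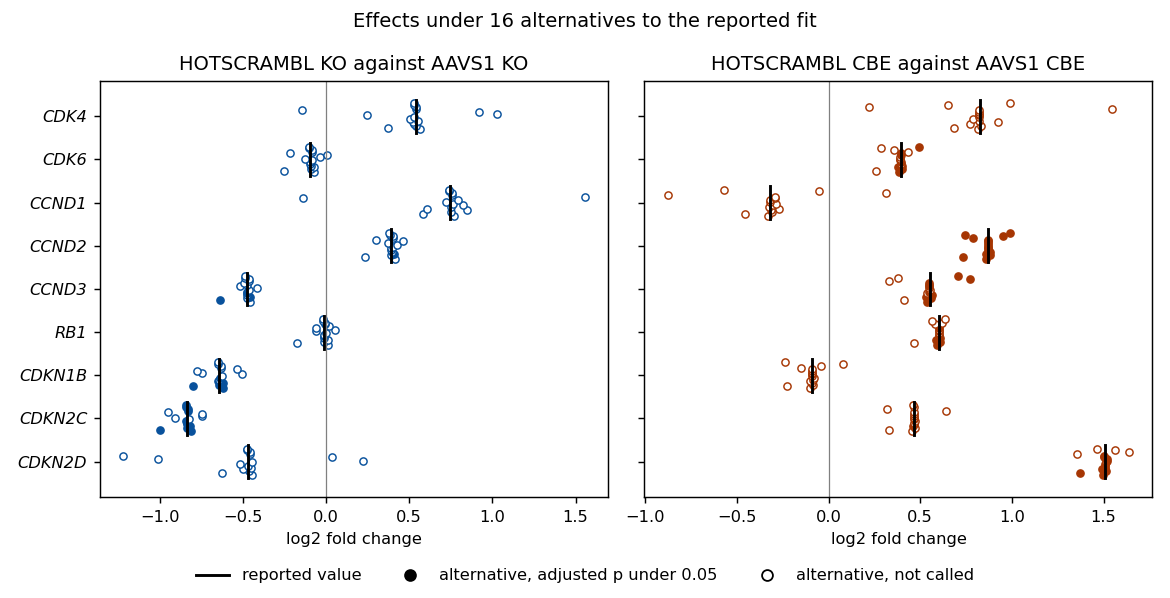
Log2 fold change (horizontal axes) of each gene with KO (left) and CBE (right) in the reported fit (black bar) and in 16 alternatives (circles; filled where the adjusted p was under 0.05). All circles of CCND2 with CBE are filled, and those of CDKN2C with KO lie between −0.997 and −0.744.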

How the data were processed

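Gene counts from 8 ChIRP libraries were analysed. The deposited values are whole-number counts, not normalised by the authors; per the file headers they were made by featureCounts 2.0.6 with the Ensembl 112 annotation of GRCh38, in paired-end mode with no fragment option, which enters a pair as 2 reads, without strand, and without reads at several positions or over several genes. Counts from 1 to 20 were even in 71.8% to 74.9% of cases per library. The aligner's settings and duplicate removal are not given in the sources used here. Depth differed by less than 2-fold between libraries. The floor of 3 counts corresponds to 0.079 to 0.146 CPM. It covers counting error at most, and may fall short of that because a pair enters as 2 reads.

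Of 63140 genes, 62541 (99.05%) had a symbol, 2 records broken over lines were rejoined, and 0 columns belonged to other samples. In edgeR 4.0.16 (R 4.3.3), filterByExpr (minimum count 10) kept 24057 genes. TMM scaling and the robust quasi-likelihood F-test were used, with terms for the 4 groups and the labelled line over all 8 libraries (3 residual degrees of freedom). The code was also run on simulated counts with no line effect and with spread set by level alone. That run does not measure error rates in these data. SE and 95% intervals come from the same fit.

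Replicate numbers pair libraries by the line in the titles. Deviations from group means correlated between groups at 0.00851 to 0.0245 over tested genes and 0.0411 to 0.117 over those above the median level. Libraries of a group differed by a chi-square per degree of freedom of 35.0 to 41.9, so none was treated as a repeat; whether they are separate cultures beyond their line labels is not stated, and p-values measure the spread between these libraries.

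The members and lists were chosen with earlier results of these data known. Named were all 9 members, and genes of the G1/S and the S, G2 and M phase lists called with KO or CBE. Alternatives were DESeq2 1.42.0, limma-voom (limma 3.58.1), DESeq2 size factors, no TMM, no filter, no line term, 4 libraries only, each library left out, and, added after seeing the data, the older quasi-likelihood method of edgeR. Their values were read for the members and for the number of all genes called, and not for other single genes.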

Additional observations from a re-analysis of the deposited data

Results flagged for a closer look

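The effect of KO differed from that of CBE, by the direct test of the difference, for 2 of the 9 G1 genes, 2 of the 25 other G1/S genes tested and 6 of the 14 genes of S, G2 and M phase. Of all tested genes 3.19% were called in this test, and 6.03% of those within the G1 genes' range of levels. All values are the KO effect minus the CBE effect on the log2 scale, with edgeR adjusted p. Only those of the G1 genes were also read under the alternative fits. CDKN2C differed by −1.30 (adjusted p 0.00445) and CCND3 by −1.03 (adjusted p 0.00605). In the same direction were TOP2A at −1.65 (3.76e-05), CCNB1 at −1.48 (0.00578), MKI67 at −0.67 (0.00933), MCM3 at −0.73 (0.0187), MCM7 at −0.68 (0.0382) and PCNA at −0.86 (0.0409). The inhibitor CDKN1A and the cyclin CCNE2 differed in the other direction, by 0.95 (0.00334) and 0.71 (0.0396). Groups of 2 libraries are too small for a check of single outlying libraries.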

How the results depend on the processing

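The number of all genes called was 2108 with KO, 2124 with CBE, 767 for the difference, 0 between controls and 119 between line labels. With DESeq2 these were 4150, 3350, 2204, 35 and 715. The fit of only the 4 libraries of a contrast gave 780 with KO and 677 with CBE. Without the line term (no replicate block) the difference had 503 calls. Between labels limma-voom gave 265 and the older edgeR method 193. Leaving out 1 library gave 677 to 1674 calls with KO, 586 to 1885 with CBE, 226 to 372 for the difference, 0 to 0 between controls and 26 to 65 between labels.

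Of the 9 members, 2 were called with KO, and 4 with DESeq2, 1 without the replicate block, 0 in the fit of 4 libraries and 0 to 1 with 1 library left out. With CBE 5 were called, and 2 without TMM, 3 without the replicate block, 1 in the fit of 4 libraries and 1 to 5 with 1 library left out. The difference called 2, and 6 with DESeq2 and 0 to 1 with 1 library left out. Fits with fewer libraries have fewer residual degrees of freedom, and a group left with 1 library is assumed to vary like the others. Between controls and between labels 0 members were called under every alternative that could be fitted.

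No member called in the reported fit changed sign under any alternative. Among uncalled values, RB1 with KO (−0.014) was 0.009 with DESeq2 size factors, 0.009 with DESeq2 and 0.000 in the fit of 4 libraries, and −0.06 to 0.052 with 1 library left out. The ranges with 1 library left out also crossed 0 for CDK4 (−0.147 to 1.03), CDK6 (−0.216 to 0.003), CCND1 (−0.138 to 1.555) and CDKN2D (−1.221 to 0.223) with KO, for CCND1 (−0.879 to 0.313) and CDKN1B (−0.238 to 0.076) with CBE, and for CDK4 in the difference (−1.006 to 0.321). CCND1, CDK4 and CDKN2D, with 108 to 882 counts per library, had the largest standard errors of the members; the cause was not tested.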

Other observations

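Further ratios of members within a library, which do not depend on scaling, were computed per kb of exon after the values had been seen. CDK6 to CDKN2C, the kinase to its INK4 inhibitor, was 0.857 and 0.88 in the AAVS1 libraries and 1.41 and 1.5 in the HOTSCRAMBL libraries with KO. With CBE the AAVS1 libraries had 1.06 and 1.28 and the HOTSCRAMBL libraries 1.12 and 1.07. The KO groups were apart and the CBE groups overlapped. CCND2 to CDKN1B was 1.69 and 2.12 in the AAVS1 libraries with KO and 1.88 and 2.22 with CBE. The HOTSCRAMBL libraries had 3.22 and 4.61 with KO and 4.25 and 3.67 with CBE, so that all 4 HOTSCRAMBL libraries were above all 4 AAVS1 libraries. CDK6 to CDKN1B ran from 2.15 to 2.9 in the AAVS1 libraries and from 3.0 to 4.4 in the HOTSCRAMBL libraries of both editors. How many other pairs of genes separate the libraries in this way was not computed, so these ratios are a description.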
